A study of Mus musculus with 12 samples.

Results

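The interferon response genes described here are 40 genes that type I, type II or type III interferons induce in mouse cells. They were chosen by gene symbol from a table of 14648 genes, and all 40 were in it. They were read in lung macrophages sorted from C57BL/6 mice bearing B16 melanoma tumors. The 12 libraries fell into 6 groups of 2: CD11c+ interstitial macrophages (IMs), CD11c- IMs and alveolar macrophages (AMs), each from mice labelled Il9r-/-, which lack the interleukin-9 receptor, and from mice labelled WT. All mice carried B16 tumors, so no group shows these cells in a lung without a tumor. The Il9r-/- deletion was not limited to macrophages, and the labels do not say whether a library came from 1 mouse or several. The p-values therefore measure the spread between these libraries.

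Interferons act through cell surface receptors that switch on JAK kinases and STAT transcription factors. A complex that contains STAT2 and IRF9 binds the interferon-stimulated response element (ISRE) in the promoters of its target genes, and many targets of interferon-gamma carry a gamma-activated sequence (GAS). The targets include sensors of viral nucleic acid, enzymes that degrade or block viral RNA, and the transcription factor IRF7, which amplifies the production of interferon. AMs live in the airspace of the lung and IMs in the tissue around it.

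Promoters of members with large differences between populations are printed first, because they show which of these motifs the genes carry. The windows run from 250 bases before to 50 bases after the RefSeq start on build GRCm38.p6, and 31 of the 40 members had one. The ISRE core GAAANNGAAA, searched on both strands as GAAANNGAAA or TTTCNNTTTC, was found in 18 of these 31 members (58.1%), against 3.99% of 27025 genes with a window. The GAS motif TTCNNNGAA, which reads the same on both strands, was found in 10 of the 31 members (32.3%), against 9.55% of all genes with a window. The 4 called members with the largest fold changes and a window were Ifi44, Ifitm3, Slfn5 and Oasl1, with any ISRE core in capitals.
Ifi44: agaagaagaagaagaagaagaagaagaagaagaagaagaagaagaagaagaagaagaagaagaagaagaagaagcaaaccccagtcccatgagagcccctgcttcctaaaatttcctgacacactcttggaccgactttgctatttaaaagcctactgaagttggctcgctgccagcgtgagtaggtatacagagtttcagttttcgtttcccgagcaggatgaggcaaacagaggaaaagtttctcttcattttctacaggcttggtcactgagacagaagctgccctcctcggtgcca
Ifitm3: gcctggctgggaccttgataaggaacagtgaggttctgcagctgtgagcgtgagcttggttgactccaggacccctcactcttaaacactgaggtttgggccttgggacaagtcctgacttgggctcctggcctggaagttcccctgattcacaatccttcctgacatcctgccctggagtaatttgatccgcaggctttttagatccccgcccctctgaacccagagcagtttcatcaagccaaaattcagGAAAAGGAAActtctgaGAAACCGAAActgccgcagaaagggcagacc
Slfn5: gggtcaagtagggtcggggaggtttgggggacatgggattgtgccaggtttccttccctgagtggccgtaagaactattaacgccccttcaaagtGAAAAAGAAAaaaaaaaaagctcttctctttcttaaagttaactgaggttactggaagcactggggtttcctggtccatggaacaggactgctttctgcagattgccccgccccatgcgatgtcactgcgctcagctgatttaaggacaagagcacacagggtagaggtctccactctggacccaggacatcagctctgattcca
Oasl1: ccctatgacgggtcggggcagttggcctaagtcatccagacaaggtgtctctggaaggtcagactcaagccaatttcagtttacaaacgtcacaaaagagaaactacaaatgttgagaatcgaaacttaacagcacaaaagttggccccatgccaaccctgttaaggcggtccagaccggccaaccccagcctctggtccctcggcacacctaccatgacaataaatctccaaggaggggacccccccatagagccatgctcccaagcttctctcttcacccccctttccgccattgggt
The Ifitm3 window (chr7:141010695-141010994, minus strand) held 2 cores on its own strand, at bases 3 to 12 and 20 to 29 after the start. The Slfn5 window (chr11:82951852-82952151, plus strand) held 1 core, which ended 146 bases before the start. No core was in these letters for Ifi44 (chr3:151749861-151750160, minus strand) or Oasl1 (chr5:114922990-114923289, plus strand). Of the members with a window, the core was in 12 of the 23 that were called higher in an IM population below, and in 6 of the 8 that were called in neither. A match is a description of the letters and was not tested for binding.

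The libraries held 26988617 to 42020021 counted reads. Levels are given as CPM, the counts of a gene scaled to the library's total and adjusted by the TMM method, and tests as edgeR quasi-likelihood tests with Benjamini-Hochberg adjustment over all 14648 genes, where a gene was called at an adjusted p under 0.05. The labels for the populations held against the sorting markers Itgax and Siglecf. Itgax, which encodes CD11c, had 302 to 437 CPM in CD11c+ IMs, 27.9 to 54.1 CPM in CD11c- IMs and 488 to 801 CPM in AMs. Siglecf had 10.8 to 65.1 CPM in the IMs and 616 to 686 CPM in AMs. Mertk and Fcgr1 encode MerTK and CD64, on which every population was sorted. Mertk was lower in IMs, with 59.8 to 204 CPM in CD11c+ IMs and 20.6 to 100.1 CPM in CD11c- IMs, against 353 to 435 CPM in AMs. Fcgr1 overlapped, with 63.5 to 159 CPM in CD11c+ IMs, 58.0 to 101 CPM in CD11c- IMs and 66.0 to 76.5 CPM in AMs. The targeted gene Il9r went against the genotype labels. It had 2.59 to 6.82 CPM in the 6 libraries labelled Il9r-/-, against 0.158 to 0.750 CPM in 5 of the 6 libraries labelled WT and 6.47 CPM in the remaining one, WT CD11c- IM replicate 2. Whether these reads lie in the deleted part of Il9r is not given in the sources used here, so every genotype comparison below is one between libraries as labelled. The 3 WT libraries numbered 1 also differed from the other 9 in sex: Xist had 12.5 to 27.03 CPM in them and at most 0.0478 CPM in the others, whereas the Y-linked Ddx3y had at most 0.257 CPM in them and 58.7 to 94.4 CPM in the others.

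**Figure D1:**
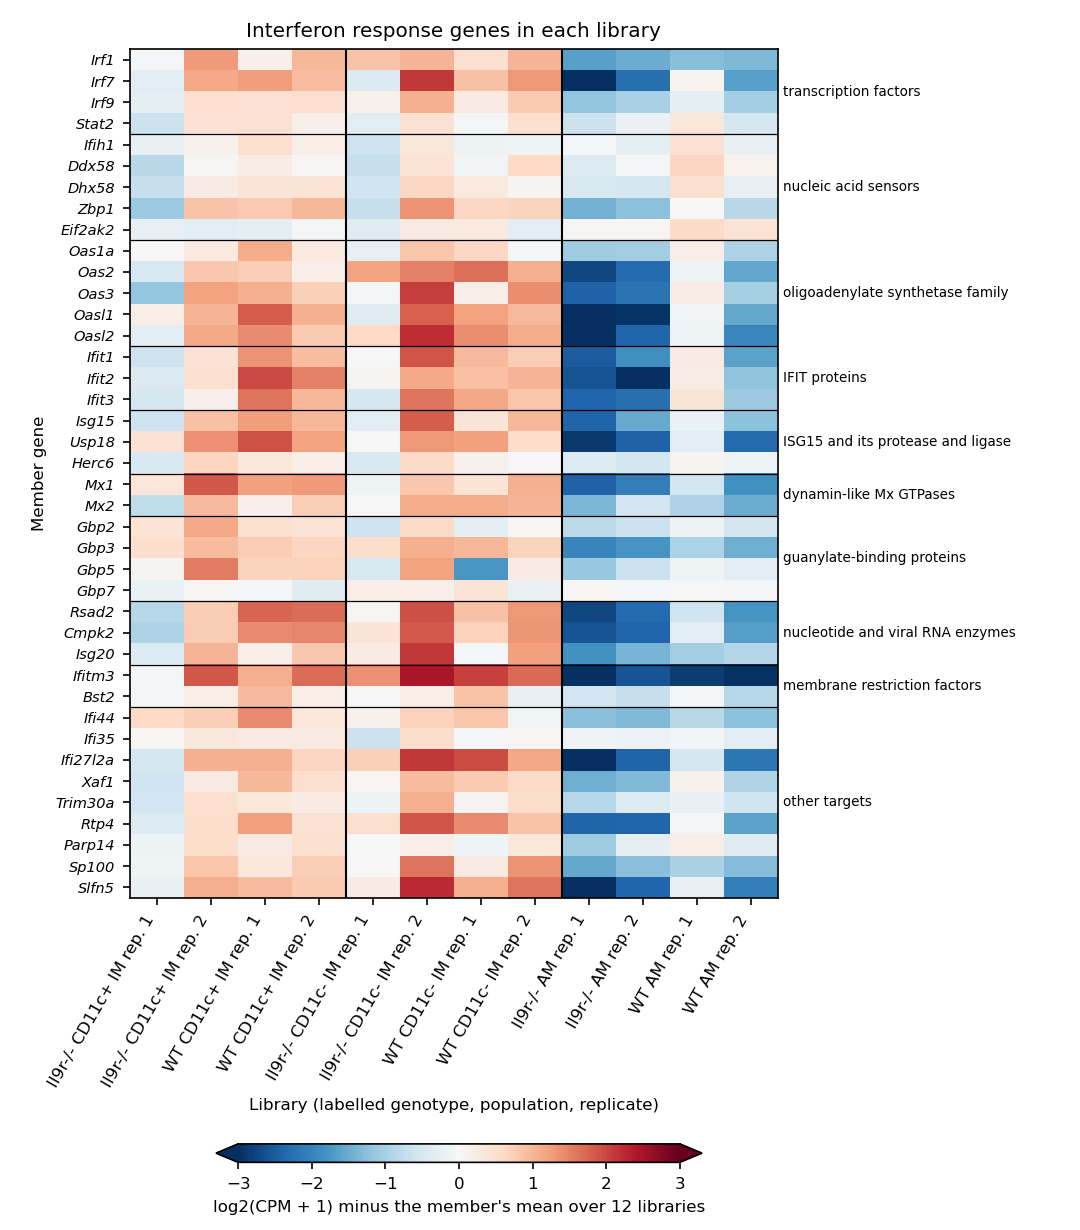
Level of each of the 40 members in the 12 libraries, as log2(CPM + 1) minus the mean of that member over the 12 libraries (colour), with genes in rows by role and libraries in columns. The AM columns are mostly blue and the IM columns mostly red, WT AM replicate 1 is paler than the other AM libraries, and replicate 1 of both Il9r-/- IM groups is paler than their replicate 2.

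Most interferon response genes were higher in both IM populations than in AMs. In CD11c+ IMs, 28 of the 40 members were called higher than in AMs and 0 lower, where 15.9% of all genes were called higher and 10.7% lower. The median log2 fold change of the members was 1.98, against 0.03 over all genes. In CD11c- IMs, 29 of the 40 were called higher than in AMs and 0 lower, where 27.9% of all genes were called higher and 17.8% lower, and the median of the members was 2.33, against 0.12 over all genes. The 4 IM libraries lay wholly above the 4 AM libraries for 16 members in CD11c+ IMs (17.7% of all genes) and for 18 members in CD11c- IMs (27.4% of all genes). Both comparisons use the same AM libraries. In bulk samples, fewer cells of a type and less RNA per cell cannot be told apart.

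**Figure D2:**
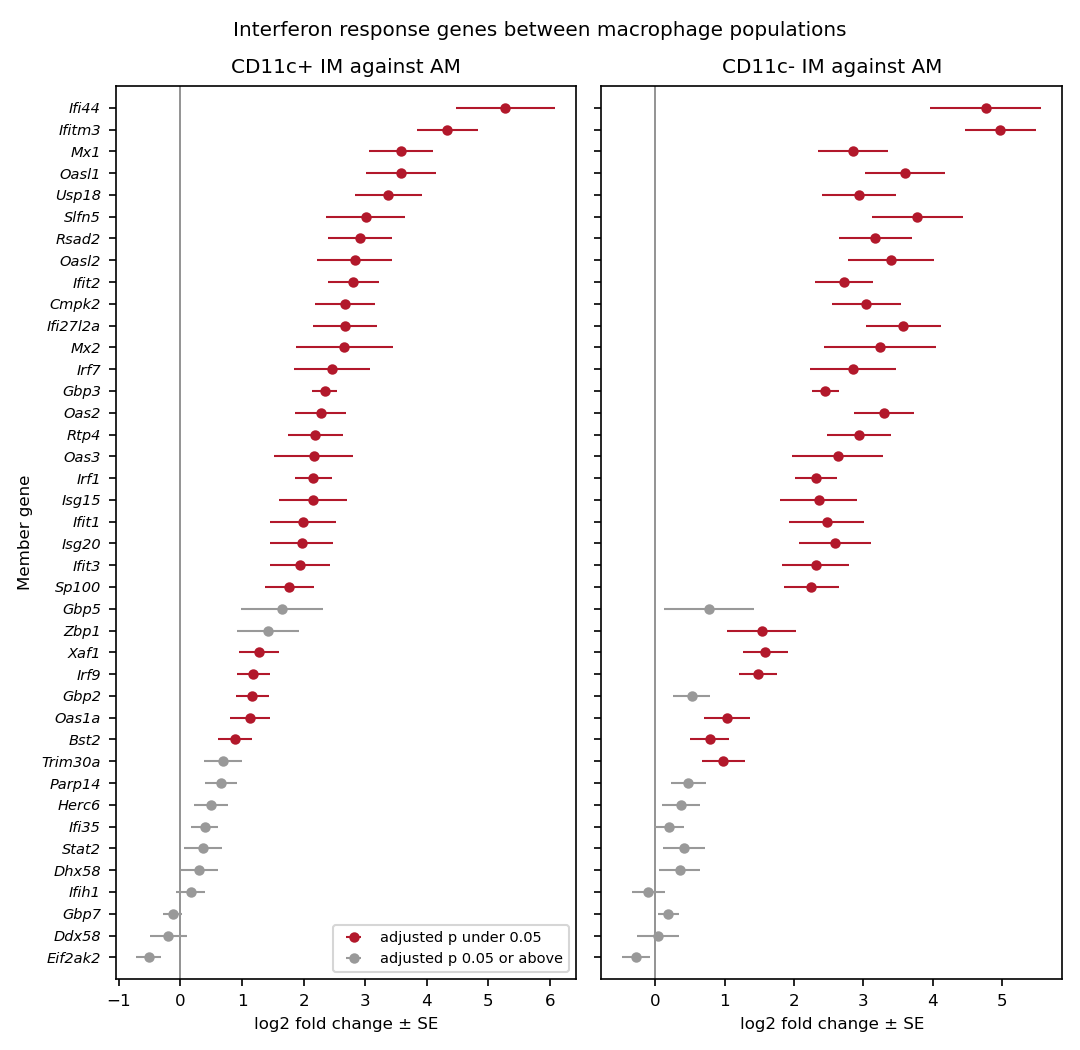
log2 fold change of each member in CD11c+ IMs (left) and CD11c- IMs (right) over AMs, with standard errors as bars and members called at an adjusted p under 0.05 in red. Called members lie between 0.78 and 5.27 and members such as Ddx58, Ifih1, Gbp7 and Eif2ak2 lie near 0.

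The share of calls differed between the roles of the members. All 5 members of the oligoadenylate synthetase family, all 3 IFIT genes, both Mx genes, all 3 enzymes of nucleotide and viral RNA and both membrane restriction factors passed as higher in CD11c+ IMs over AMs. The counts for CD11c- IMs were equal. Among the 5 nucleic acid sensors, 0 were called in CD11c+ IMs and 1, Zbp1, in CD11c- IMs, with medians of 0.17 and 0.03 on the log2 scale. The 4 transcription factors had 3 called members in each comparison, and the 4 guanylate-binding proteins had 2 in CD11c+ IMs and 1 in CD11c- IMs.

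Ifitm3, a membrane protein that blocks the entry of enveloped viruses, showed the largest difference among members above 5 CPM. In CD11c+ IMs it had 180.1 and 675 CPM in the libraries labelled Il9r-/- and 394 and 595 CPM in those labelled WT. In CD11c- IMs it had 479.6 and 1019 CPM in Il9r-/- libraries and 772 and 604 CPM in WT libraries. In AMs it had 13.2 and 30.2 CPM in Il9r-/- libraries and 25.1 and 22.8 CPM in WT libraries. Every IM library was above every AM library. Ifitm3 was 20.2-fold higher in CD11c+ IMs than in AMs (log2 fold change 4.33 ± 0.49 (SE), adjusted p = 0.000349) and 31.5-fold higher in CD11c- IMs (4.98 ± 0.51, adjusted p = 9.92e-05). Bst2, or tetherin, which holds budding virus at the cell surface, showed smaller log2 fold changes, by 0.89 ± 0.28 in CD11c+ IMs and 0.78 ± 0.28 in CD11c- IMs.

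Among the transcription factors, Irf7 was the most abundant per length over all libraries. In CD11c+ IMs it had 69.6 and 196 CPM in Il9r-/- libraries and 213 and 169 CPM in WT libraries. In CD11c- IMs it had 65.5 and 389 CPM in Il9r-/- libraries and 163 and 219 CPM in WT libraries, and in AMs 9.67 and 17.6 CPM in Il9r-/- libraries and 94.5 and 27.9 CPM in WT libraries. WT AM replicate 1 was above the lowest library of each IM population, so the groups overlapped. The log2 fold change over AMs was 2.46 ± 0.61 in CD11c+ IMs (adjusted p = 0.0164) and 2.85 ± 0.62 in CD11c- IMs (adjusted p = 0.00519). Irf1, which drives many targets of interferon-gamma, did not overlap, with 149 to 369 CPM in CD11c+ IMs and 213 to 309.9 CPM in CD11c- IMs, against 48.3 to 62.6 CPM in AMs. Irf9, the DNA-binding partner of the STAT proteins, was higher by 1.19 ± 0.27 in CD11c+ IMs and 1.47 ± 0.27 in CD11c- IMs. Its partner Stat2 was not called, with log2 fold changes of 0.37 ± 0.31 and 0.41 ± 0.31.

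The oligoadenylate synthetases sense double-stranded RNA and switch on RNase L, and Oasl1 and Oasl2 are their relatives. Oas1a, the most abundant of the 5 per length over all libraries, had 59.97 and 73.6 CPM in Il9r-/- and 130.3 and 74.6 CPM in WT libraries of CD11c+ IMs. It had 50.7 and 107 CPM in Il9r-/- and 92.7 and 58.2 CPM in WT libraries of CD11c- IMs, against 28.1 and 28.6 CPM in Il9r-/- and 69.5 and 31.3 CPM in WT libraries of AMs. WT AM replicate 1 again lay within the range of the IMs. Oas1a rose by 1.13 ± 0.33 in CD11c+ IMs (adjusted p = 0.0331) and by 1.03 ± 0.33 in CD11c- IMs (adjusted p = 0.0300) on the log2 scale. Oasl1 had 14.8 and 27.02 CPM in Il9r-/- and 47.7 and 28.0 CPM in WT libraries of CD11c+ IMs, and 9.77 and 47.1 CPM in Il9r-/- and 31.2 and 26.2 CPM in WT libraries of CD11c- IMs. In AMs it had 0.600 and 0.801 CPM in Il9r-/- libraries and 12.0 and 3.76 CPM in WT libraries. It was 12.0-fold higher in CD11c+ IMs than in AMs (3.58 ± 0.57, adjusted p = 0.00202) and 12.1-fold higher in CD11c- IMs (3.601 ± 0.57, adjusted p = 0.00102). Oasl2 had 42.7 and 119 CPM in Il9r-/- and 146 and 93.2 CPM in WT libraries of CD11c+ IMs. It had 81.3 and 250.4 CPM in Il9r-/- and 142 and 117 CPM in WT libraries of CD11c- IMs, against 2.69 and 9.58 CPM in Il9r-/- and 49.3 and 13.2 CPM in WT libraries of AMs. WT AM replicate 1 overlapped the lowest CD11c+ IM library and no CD11c- IM library. Oasl2 was higher by 2.83 ± 0.61 and 3.41 ± 0.62, Oas2 by 2.28 ± 0.42 and 3.30 ± 0.43, and Oas3 by 2.16 ± 0.64 and 2.63 ± 0.65 in CD11c+ and CD11c- IMs.

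IFIT proteins bind viral RNA that lacks the cap structure of the host. Ifit3, the most abundant of the 3 per length, had 22.8 and 37.1 CPM in Il9r-/- and 104 and 67.5 CPM in WT libraries of CD11c+ IMs. It had 22.7 and 103 CPM in Il9r-/- and 75.3 and 60.4 CPM in WT libraries of CD11c- IMs, against 5.63 and 6.18 CPM in Il9r-/- and 43.6 and 15.2 CPM in WT libraries of AMs. The populations overlapped through WT AM replicate 1. The log2 fold change of Ifit3 over AMs was 1.94 ± 0.48 in CD11c+ IMs and 2.31 ± 0.49 in CD11c- IMs, that of Ifit2 was 2.81 ± 0.42 and 2.72 ± 0.42, and that of Ifit1 was 1.99 ± 0.54 and 2.47 ± 0.55. Ifit3 has a close copy, Ifit3b, so that reads shared by the pair could not be assigned to either, and the same holds for Oas1a and Oas1g.

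ISG15 is a small protein that is attached to other proteins, and USP18 removes it and dampens signaling from the type I receptor. Isg15 had 11.2 and 33.8 CPM in Il9r-/- and 44.0 and 36.7 CPM in WT libraries of CD11c+ IMs, 14.2 and 66.0 CPM in Il9r-/- and 23.7 and 36.7 CPM in WT libraries of CD11c- IMs, and 2.56 and 5.64 CPM in Il9r-/- and 15.5 and 7.06 CPM in WT libraries of AMs. Its log2 fold change was 2.15 ± 0.55 in CD11c+ IMs and 2.36 ± 0.56 in CD11c- IMs. Usp18 had 30.0 and 58.4 CPM in Il9r-/- and 86.3 and 52.0 CPM in WT libraries of CD11c+ IMs. It had 21.8 and 55.9 CPM in Il9r-/- and 53.3 and 32.2 CPM in WT libraries of CD11c- IMs, against 2.09 and 3.30 CPM in Il9r-/- and 17.5 and 3.58 CPM in WT libraries of AMs. No IM library overlapped an AM library. It was 10.4-fold higher in CD11c+ IMs (3.38 ± 0.55, adjusted p = 0.0022) and 7.65-fold higher in CD11c- IMs (2.94 ± 0.54, adjusted p = 0.00218). Herc6, the ligase for ISG15 in mouse, was not called, with 0.49 ± 0.28 and 0.37 ± 0.28.

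Mx proteins are GTPases that trap viral nucleoproteins, and C57BL/6 mice carry a defective Mx1 allele. Mx1 had 10.7 and 32.1 CPM in Il9r-/- and 20.4 and 20.9 CPM in WT libraries of CD11c+ IMs. In CD11c- IMs it had 7.25 and 14.8 CPM in Il9r-/- and 11.1 and 18.1 CPM in WT libraries, against 0.678 and 1.15 CPM in Il9r-/- and 5.15 and 1.56 CPM in WT libraries of AMs. Every IM library was above every AM library. Mx1 was 12.0-fold higher in CD11c+ IMs (3.58 ± 0.52, adjusted p = 0.0012) and 7.22-fold higher in CD11c- IMs (2.85 ± 0.50, adjusted p = 0.00178).

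The enzymes of nucleotide and viral RNA comprised viperin (Rsad2), which makes a chain-terminating nucleotide, the kinase Cmpk2 beside it and the exonuclease Isg20. Rsad2 had 15.4 and 49.1 CPM in Il9r-/- and 97.7 and 93.1 CPM in WT libraries of CD11c+ IMs. It had 29.4 and 112 CPM in Il9r-/- and 53.3 and 72.4 CPM in WT libraries of CD11c- IMs, against 3.44 and 4.90 CPM in Il9r-/- and 18.6 and 7.53 CPM in WT libraries of AMs. The CD11c+ IMs overlapped the AMs through WT AM replicate 1, and the CD11c- IMs did not. Rsad2 was higher by 2.91 ± 0.52 in CD11c+ IMs (adjusted p = 0.00352) and by 3.17 ± 0.53 in CD11c- IMs (adjusted p = 0.00129). Isg20, the most abundant of the 3 per length over all libraries, had 10.3 and 29.7 CPM in Il9r-/- and 15.96 and 25.7 CPM in WT libraries of CD11c+ IMs. It had 16.9 and 64.8 CPM in Il9r-/- and 13.7 and 34.2 CPM in WT libraries of CD11c- IMs, against 3.31 and 4.74 CPM in Il9r-/- and 6.30 and 7.16 CPM in WT libraries of AMs, with no overlap.

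Guanylate-binding proteins are GTPases that attack the vacuoles and membranes of pathogens. Gbp3 had the smallest standard errors among the called members. It had 56.9 and 76.8 CPM in Il9r-/- and 67.9 and 62.4 CPM in WT libraries of CD11c+ IMs, 57.0 and 84.9 CPM in Il9r-/- and 79.8 and 63.5 CPM in WT libraries of CD11c- IMs, and 9.20 and 10.9 CPM in Il9r-/- and 20.04 and 13.6 CPM in WT libraries of AMs. It was 5.07-fold higher in CD11c+ IMs (2.34 ± 0.20, adjusted p = 8.98e-05) and 5.48-fold higher in CD11c- IMs (2.45 ± 0.20, adjusted p = 3.58e-05). Gbp7 overlapped between the populations, with 56.9 to 75.3 CPM in CD11c+ IMs, 63.9 to 99.3 CPM in CD11c- IMs and 70.9 to 75.9 CPM in AMs. Its log2 fold changes of -0.12 ± 0.15 and 0.19 ± 0.15 were not called. Gbp2, the most abundant of the 4 per length, had 101 and 169 CPM in Il9r-/- and 106 and 100.5 CPM in WT libraries of CD11c+ IMs, 48.8 and 113 CPM in Il9r-/- and 62.6 and 78.0 CPM in WT libraries of CD11c- IMs, and 43.1 and 48.5 CPM in Il9r-/- and 68.3 and 51.8 CPM in WT libraries of AMs. It was called in CD11c+ IMs (1.17 ± 0.27, adjusted p = 0.0116) and not in CD11c- IMs (0.52 ± 0.26, adjusted p = 0.135). Gbp5 was called in neither, with 1.65 ± 0.66 and 0.77 ± 0.65.

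The RNA sensors Ddx58, Ifih1 and Dhx58 were not called in either IM population. Ddx58, which encodes RIG-I, had 31.1 and 57.8 CPM in Il9r-/- and 65.6 and 57.3 CPM in WT libraries of CD11c+ IMs. It had 34.5 and 75.2 CPM in Il9r-/- and 52.5 and 84.8 CPM in WT libraries of CD11c- IMs, against 41.9 and 54.4 CPM in Il9r-/- and 88.5 and 60.4 CPM in WT libraries of AMs. The ranges of the 3 populations overlapped. Log2 fold changes over AMs in CD11c+ and CD11c- IMs were -0.20 ± 0.30 and 0.03 ± 0.30 for Ddx58, 0.17 ± 0.24 and -0.10 ± 0.24 for Ifih1 (MDA5), and 0.31 ± 0.30 and 0.35 ± 0.30 for Dhx58 (LGP2), which regulates both. Eif2ak2, the kinase PKR that halts translation, had 14.5 to 18.01 CPM in CD11c+ IMs and 14.1 to 22.97 CPM in CD11c- IMs, against 18.9 to 27.8 CPM in AMs. Its log2 fold changes of -0.51 ± 0.20 (adjusted p = 0.096) and -0.28 ± 0.20 (adjusted p = 0.291) were not called. It was the 1 member whose 4 CD11c+ IM libraries all lay below the 4 AM libraries (16.8% of all genes), and edgeR on these groups alone called it lower at -0.50 ± 0.13 (adjusted p = 0.0239), with 13.7% of all genes. Zbp1, a sensor of Z-form nucleic acid that triggers cell death, was the most abundant of the 5 per length over all libraries. It had 18.5 and 75.5 CPM in Il9r-/- and 71.9 and 82.1 CPM in WT libraries of CD11c+ IMs, 25.2 and 105 CPM in Il9r-/- and 63.4 and 65.2 CPM in WT libraries of CD11c- IMs, and 14.8 and 16.8 CPM in Il9r-/- and 40.8 and 22.7 CPM in WT libraries of AMs. It was called in CD11c- IMs (1.53 ± 0.50, adjusted p = 0.033) and not in CD11c+ IMs (1.43 ± 0.50, adjusted p = 0.0648), where the replicate block by genotype and number called it (1.23 ± 0.33, adjusted p = 0.0236).

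**Figure D3:**
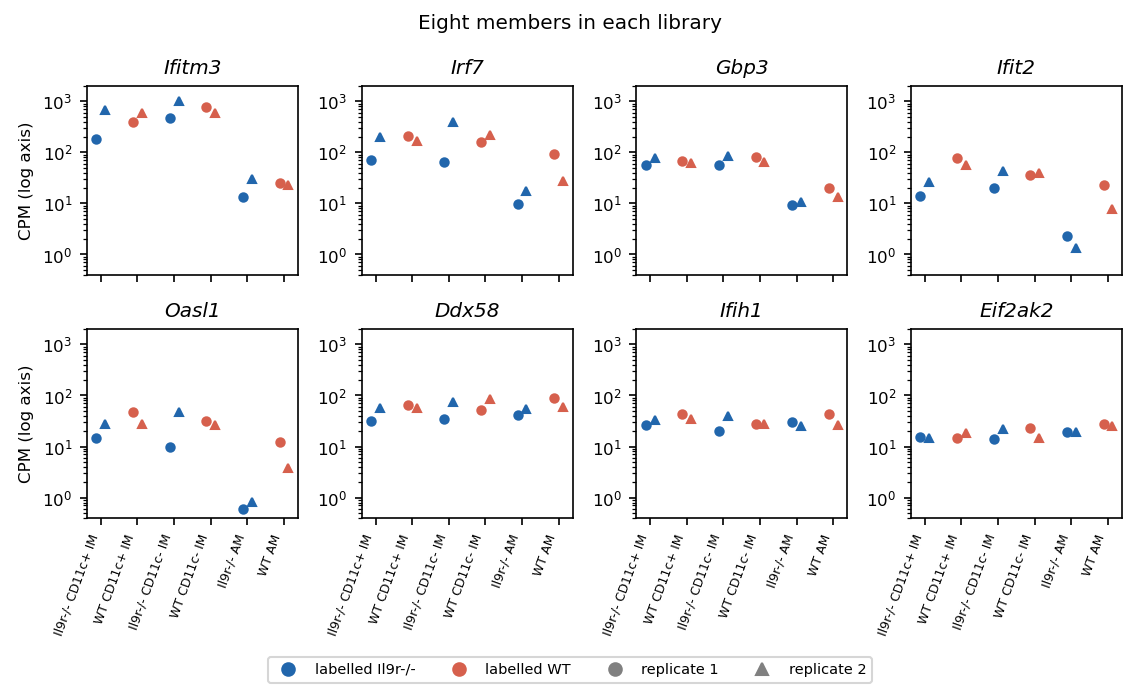
CPM (log axis) of 8 members in each library, by group, with blue for libraries labelled Il9r-/- and red for those labelled WT, circles for replicate 1 and triangles for replicate 2. Ifitm3, Gbp3 and Irf7 have their lowest values in AM libraries, Oasl1 and Ifit2 are at 0.600 to 2.32 CPM in Il9r-/- AMs, and the groups overlap for Ddx58 and Ifih1.

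Of the 9 remaining targets, 6 were called higher in CD11c+ IMs and 7 in CD11c- IMs. Ifi27l2a was the most abundant of them per length over all libraries. It had 60.9 and 187 CPM in Il9r-/- and 188 and 138 CPM in WT libraries of CD11c+ IMs. In CD11c- IMs it had 145 and 384 CPM in Il9r-/- and 343 and 198 CPM in WT libraries, against 9.47 and 15.8 CPM in Il9r-/- and 60.6 and 18.8 CPM in WT libraries of AMs. No IM library overlapped an AM library, and the log2 fold changes were 2.67 ± 0.52 and 3.58 ± 0.54. Slfn5, a Schlafen gene, had 10.8 and 28.5 CPM in Il9r-/- and 25.4 and 22.8 CPM in WT libraries of CD11c+ IMs. It had 15.4 and 64.3 CPM in Il9r-/- and 28.3 and 40.8 CPM in WT libraries of CD11c- IMs, against 0.60 and 1.67 CPM in Il9r-/- and 10.7 and 2.28 CPM in WT libraries of AMs. It was 8.07-fold and 13.7-fold higher in CD11c+ and CD11c- IMs over AMs (3.01 ± 0.64 and 3.78 ± 0.66), and WT AM replicate 1 lay just below the lowest CD11c+ IM library. Ifi44 had 58 to 215 counted reads in the CD11c+ IM libraries and 57 to 163 in the CD11c- IM libraries, against 2 and 0 reads in Il9r-/- AMs and 15 and 2 in WT AMs, so its log2 fold changes of 5.27 ± 0.81 and 4.77 ± 0.80 rest on few reads. Rtp4, Xaf1 and Sp100, which encodes a protein of nuclear bodies, were called in both, Trim30a in CD11c- IMs, and Ifi35 and Parp14 in neither. With the replicate block by genotype and number, Trim30a (0.64 ± 0.18, adjusted p = 0.0286) and Parp14 (0.67 ± 0.21, adjusted p = 0.0456) were also called in CD11c+ IMs. That Trim30a and Zbp1 passed in 1 IM population is no test of a difference between the IM populations, which is given below.

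Per length, the members were at the level of the median gene in AMs and above it in IMs. The median of the members in the log2 FPKM values that the authors deposited was 3.74 in CD11c+ IMs, 4.05 in CD11c- IMs and 2.40 in AMs, above 67.0%, 71.5% and 51.2% of genes. Ifitm3 and Ifi27l2a ranked first and second of the 40 members in both IM populations, with mean log2 FPKM of 9.31 ± 0.86 and 7.22 ± 0.77 in CD11c+ IMs and 10.06 ± 0.47 and 8.13 ± 0.66 in CD11c- IMs (SD, n = 4). In AMs the order began with Bst2 at 5.89 ± 0.35, Ifi35 at 5.61 ± 0.11 and Ifitm3 at 5.08 ± 0.51. The difference between Bst2 and Ifi35 was smaller than the SD of Bst2. The order within a role also changed between populations: Oasl2 was above Oas1a in CD11c- IMs (5.43 and 5.29), Rsad2 above Isg20 in CD11c+ IMs (3.76 and 3.58), and Irf1 above Irf7 (4.05 and 3.80) and Dhx58 above Zbp1 (4.04 and 3.34) in AMs, all as mean log2 FPKM.

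The calls in CD11c+ IMs were less stable than those in CD11c- IMs. In CD11c+ IMs, 15 of the 28 called members passed under every one of 17 alternative analyses, Cmpk2, Gbp3, Ifi27l2a, Ifit2, Ifitm3, Irf1, Irf9, Mx1, Oas2, Oasl1, Oasl2, Rsad2, Rtp4, Slfn5 and Usp18. Leaving out the 3 WT libraries numbered 1 left 17 called members, and leaving out WT AM replicate 2, Il9r-/- AM replicate 1 or Il9r-/- CD11c+ IM replicate 2 left 17, 18 and 18. These fits hold fewer libraries, and whether the fall in calls exceeded that over all genes was not tested. In CD11c- IMs, 23 of the 29 called members passed under every one of 17 alternatives, and 27 were called without the 3 WT libraries numbered 1. With the replicate block by genotype and number, 31 members were called higher in CD11c+ IMs (16.9% of all genes) and 29 in CD11c- IMs (28% of all genes). No called member changed sign in any of these analyses.

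Markers of other cell types moved with the same contrasts. The 6 classical monocyte markers were all called higher in both IM populations, with sums of 636 to 1525 CPM in CD11c+ IMs and 2681 to 3491 CPM in CD11c- IMs, against 38.4 to 84.0 CPM in AMs. Markers of plasmacytoid dendritic cells summed to 28.8 to 111 CPM in CD11c+ IMs and 58.2 to 264 CPM in CD11c- IMs. In AMs they summed to 3.70 to 11.8 CPM, and 3 of 6 were called higher in each IM population. Ly6d was the largest part of this sum except in Il9r-/- CD11c- IM replicate 1, where Siglech was. Within each population Ly6d ranked the libraries in the same order as the sum of B cell markers. Siglech had 2.58 to 12.98 CPM in CD11c+ IMs, 10.8 to 36.2 CPM in CD11c- IMs and 0.13 to 0.977 CPM in AMs. Klk1, Pacsin1 and Cox6a2 had at most 7.19 CPM in any library. Whether the Ly6d reads came from plasmacytoid dendritic cells or B cells was not tested. Markers were called higher in CD11c+ and CD11c- IMs for 6 and 4 of 6 genes of dendritic cells (1 was lower in CD11c- IMs), 3 and 5 of 5 of neutrophils, 8 and 10 of 10 of T and NK cells, and 4 and 4 of 4 of B cells. The sums in CD11c+ IMs, CD11c- IMs and AMs were 421 to 1906, 173 to 811 and 15.3 to 45.8 CPM for dendritic cells, 129 to 1437, 219.7 to 4783 and 31.8 to 134 CPM for neutrophils, 118 to 275, 104 to 517 and 14.7 to 26.6 CPM for T and NK cells, and 98.8 to 470.4, 179 to 1453 and 21.7 to 49.0 CPM for B cells. In CD11c- IMs, 5 of 5 melanocyte genes (3247 to 8697 CPM, against 58.4 to 305 CPM in AMs), 5 of 5 fibroblast genes (563 to 871 CPM, against 6.59 to 8.29 CPM), 5 of 5 endothelial genes (44.8 to 234 CPM, against 5.89 to 22.01 CPM) and 4 of 5 epithelial genes (513 to 5874 CPM, against 103 to 201 CPM) were also called higher. In CD11c+ IMs, 3 of 5 endothelial genes (32.7 to 120 CPM), 2 of 5 fibroblast, 2 of 5 epithelial and 0 of 5 melanocyte genes were called higher. In each IM population 1 epithelial gene was called lower. No marker was at 0 in every library of a population. Interstitial macrophage markers were called higher for 9 of 10 genes in each IM population and alveolar markers lower for 8 and 10 of 10. The part of these other cells in the levels of the interferon response genes was not tested.

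Between the IM populations no member was called. In CD11c+ against CD11c- IMs, 0 of the 40 members passed, where 4.98% of all genes were called higher and 7.71% lower, and 2 members had an unadjusted p under 0.05, as did 4110 genes in all. DESeq2 also called 0 members. The median log2 fold change was -0.23, against -0.05 over all genes. The lowest p-values were those of Oas2, Gbp2 and Gbp7. Oas2 had 11.5 and 29.1 CPM in Il9r-/- and 27.8 and 18.7 CPM in WT libraries of CD11c+ IMs, against 38.9 and 48.4 CPM in Il9r-/- and 53.4 and 35.6 CPM in WT libraries of CD11c- IMs. The populations did not overlap for Oas2, with a log2 fold change of -1.02 ± 0.40 (adjusted p = 0.128). Gbp2 went the other way, at 0.65 ± 0.26 (adjusted p = 0.148), and Gbp7 was at -0.31 ± 0.15 (adjusted p = 0.229). With a replicate block by genotype and number, which pairs the libraries of 1 label across populations, 4 members were called: Oas2 at -1.09 ± 0.23 (adjusted p = 0.0216), Ifi27l2a at -0.90 ± 0.22 (adjusted p = 0.0319) and Ifitm3 at -0.74 ± 0.20 (adjusted p = 0.0474) were lower and Gbp2 at 0.67 ± 0.18 (adjusted p = 0.0481) was higher in CD11c+ IMs. This fit called 6.38% of all genes higher and 7.91% lower. Without Il9r-/- CD11c- IM replicate 2, 2 members were called higher, where 4.04% of all genes were, Gbp2 at 1.01 ± 0.21 (adjusted p = 0.0255) and Ifi35 at 0.55 ± 0.13 (adjusted p = 0.0329).

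The study asked how loss of the interleukin-9 receptor changes these macrophages. Between the libraries labelled Il9r-/- and WT, no member was called in any population. In AMs 0 members were called (0.0205% of all genes were), and the estimates of 37 of the 40 members were negative, where 48.3% of all genes had a positive estimate, with a median of -0.85 against 0 over all genes. Unadjusted p-values were under 0.05 for 18 members, each lower in Il9r-/- libraries, where 3.00% of all genes were lower at that level. Both Il9r-/- AM libraries were below both WT AM libraries for 29 of the 40 members, where 22.4% of all genes were. Marker sums of other cells moved with the label in AMs. Those of neutrophils were 79.3 to 134 CPM in Il9r-/- and 31.8 to 71.03 CPM in WT AMs. Those of endothelium were 13.3 to 22.01 CPM and 5.89 to 9.30 CPM, and those of melanocytes and B16 cells 58.4 to 79.98 CPM and 117 to 305 CPM. The epithelial sums were 103 to 143 CPM in Il9r-/- and 179.7 to 201 CPM in WT AMs and were mostly Epcam. Epcam had 102.9 and 76.2 CPM in Il9r-/- and 165.4 and 189.2 CPM in WT AMs. Sftpc went the other way, at 20.4 and 15.6 CPM against 7.12 and 7.35 CPM, as did Scgb1a1 and Scgb3a2, and Sftpb overlapped. Alveolar macrophage markers summed to 43157 to 44195 CPM in Il9r-/- AMs and 32881 to 35728 CPM in WT AMs. These sums were mostly Chil3, at 38499 and 37619 CPM in Il9r-/- and 28594 and 31334 CPM in WT AMs. Marco, Car4, Fabp4, Krt79 and Ear2 were also higher in Il9r-/- AMs, Ear1 was lower, and Siglecf, Pparg and Cidec overlapped. Interstitial macrophage markers went the other way, at 1471.5 to 1650 CPM in Il9r-/- AMs and 1766 to 1933 CPM in WT AMs. Mrc1 and Csf1r made up most of these sums, and each listed marker except Ms4a7 was lower in both Il9r-/- AM libraries. Sums of monocyte, dendritic cell, B cell and T and NK cell markers overlapped between the labels. The part of these sums in the AM difference was not tested. In CD11c+ IMs melanocyte and B16 markers summed to 48.0 to 139 CPM in Il9r-/- and 311 to 749.8 CPM in WT libraries. In CD11c+ IMs the median was -0.40 and 0 members were called (0.00683% of all genes). At an unadjusted p under 0.05, 2 members were lower (1.86% of all genes), and 11 members did not overlap between labels in that direction (12.5% of all genes). In CD11c- IMs the median was 0.07, 0 members were called (0% of all genes), 0 had an unadjusted p under 0.05 and 0 lay apart in that direction (7.63% of all genes).

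**Figure D4:**
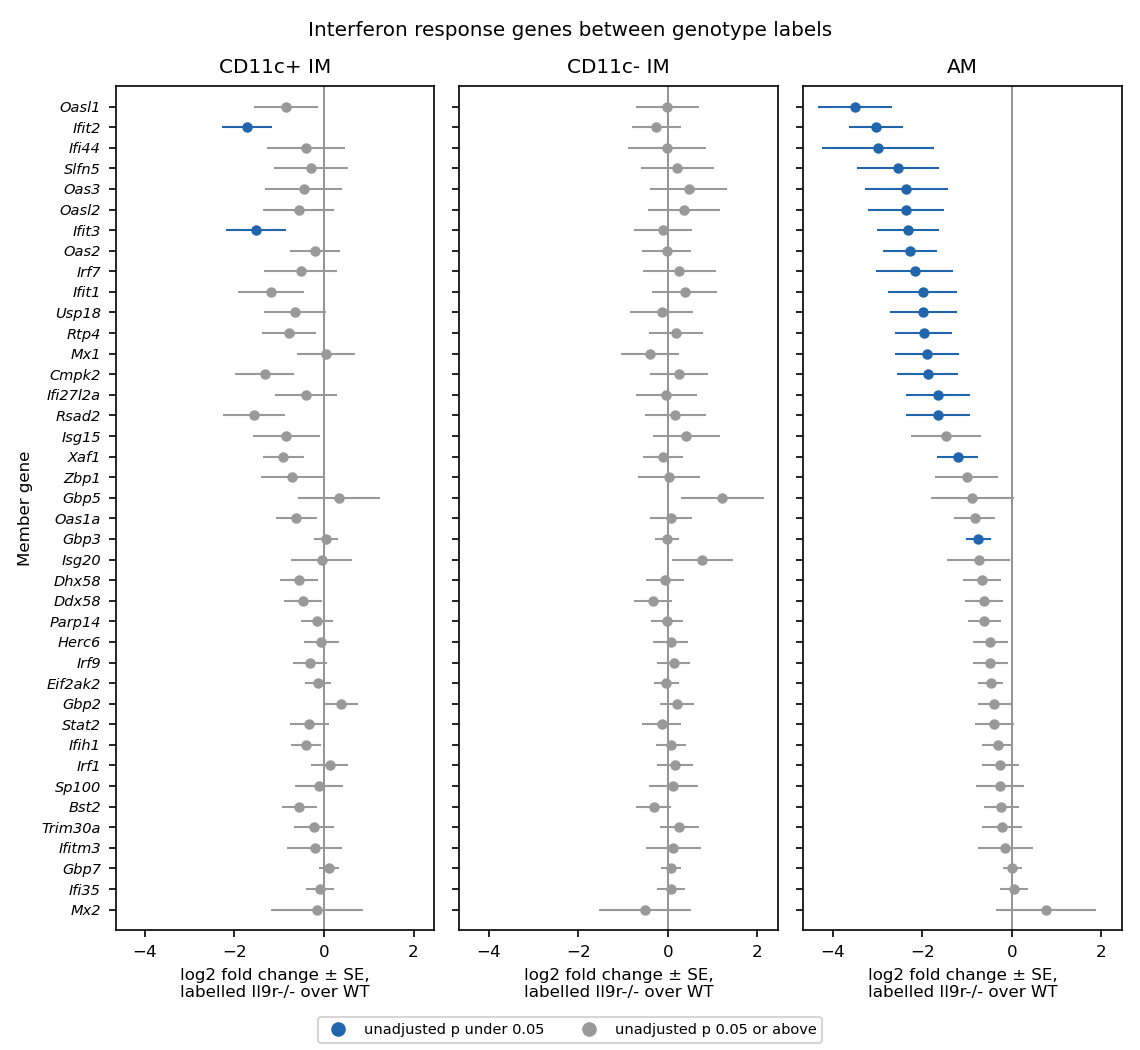
log2 fold change of each member in libraries labelled Il9r-/- over those labelled WT, in CD11c+ IMs, CD11c- IMs and AMs from left to right, with standard errors as bars and members at an unadjusted p under 0.05 in blue. In AMs 18 members are blue and negative, in CD11c+ IMs 2 are, and in CD11c- IMs 0 are, and no member passed adjustment in any panel.

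Ifit2 had the lowest p among the members in AMs and in CD11c+ IMs. It had 2.32 and 1.35 CPM in Il9r-/- AMs, against 22.5 and 7.74 CPM in WT AMs, a log2 fold change of -3.04 ± 0.61 (adjusted p = 0.414). In CD11c+ IMs it had 13.8 and 26.9 CPM in Il9r-/- libraries, against 78.0 and 56.7 CPM in WT libraries, a log2 fold change of -1.73 ± 0.56 (adjusted p = 0.963). In CD11c- IMs the labels overlapped, with 20.3 and 43.5 CPM in Il9r-/- libraries against 36.3 and 39.9 CPM in WT libraries, and the log2 fold change was -0.26 ± 0.54. The next in AMs were Oasl1, at 0.600 and 0.801 CPM in Il9r-/- libraries against 12.0 and 3.76 CPM in WT libraries (-3.50 ± 0.83, adjusted p = 0.709), and Oas2, at 1.62 and 2.47 CPM against 14.9 and 4.81 CPM (-2.28 ± 0.60, adjusted p = 0.833). In CD11c+ IMs they were Ifit3 (-1.52 ± 0.67) and Rsad2 (-1.56 ± 0.69), and in CD11c- IMs Gbp5 (1.22 ± 0.92), Isg20 (0.77 ± 0.69) and Bst2 (-0.31 ± 0.39), all at an adjusted p of 1. As the mean over the 3 populations, 0 members were called (0.0273% of all genes were), and the median was -0.47. This test took all libraries as independent. If libraries of 1 label and number came from the same mice, its p-values could be too small. At an unadjusted p under 0.05, 8 members were lower (2.88% of all genes). The lowest p-values for this mean were those of Ifit2 (-1.67 ± 0.33, adjusted p = 0.225), Ifit3 (-1.31 ± 0.39, adjusted p = 0.553) and Oasl1 (-1.46 ± 0.43, adjusted p = 0.553).

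Calls in AMs differed between the tools. DESeq2 called 3 members lower in Il9r-/- AMs, Ifit2 (adjusted p = 0.00021), Oasl1 (adjusted p = 0.00205) and Oas2 (adjusted p = 0.037), where it called 0.355% of the genes it tested lower. For the mean over the populations it called 1 member lower, Ifit2 (adjusted p = 0.000269), and 0.498% of all genes. That fit also took the libraries of 1 label and number as independent. edgeR on the 4 AM libraries alone called Oasl1 (adjusted p = 0.016) and Oas3 (adjusted p = 0.028) lower, with 1.04% of all genes. WT AM replicate 1, a library with Xist, was the highest of the 4 AM libraries for 36 of the 40 members, where it was for 24.9% of all genes. Without this library the edgeR log2 fold changes were -2.07 ± 0.55 for Ifit2, -2.43 ± 0.83 for Oasl1 and -1.24 ± 0.56 for Oas2. DESeq2 without this library, an analysis chosen after seeing the data, called 0 members in AMs (0.0819% of all genes were lower), with an adjusted p of 0.289 for Ifit2, and 1 member, Ifit2, for the mean over the populations (-1.35 ± 0.31, adjusted p = 0.00605, with 0.212% of all genes lower). In Il9r-/- AMs 9 members were higher in replicate 1 and 31 in replicate 2, where 46.4% of all genes were higher in replicate 1. In Il9r-/- CD11c+ IMs and Il9r-/- CD11c- IMs, 39 of the 40 members were higher in replicate 2. In WT CD11c+ and CD11c- IMs, where replicate 1 also had Xist, 26 and 19 of the 40 members were higher in replicate 1. Of all genes, 49.1% and 52.5% were. The part of library number and sex in these differences was not tested. In WT AMs, which have 1 library of each sex, sex and other differences between the libraries cannot be told apart.

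The genotype effect was not shown to differ between populations. In CD11c+ IMs minus AMs, 0 members were called (0% of all genes), with a median of 0.51 against 0.03 over all genes. At an unadjusted p under 0.05, 2 members were higher (1.94% of all genes). In CD11c- IMs minus AMs, 0 were called (0% of all genes), the median was 1.06 against 0.03, and 7 were higher at an unadjusted p under 0.05 (1.74% of all genes). The lowest p-values were those of Oas2 (2.08 ± 0.81), Oasl1 (2.64 ± 1.07) and Gbp3 (0.78 ± 0.38) in CD11c+ IMs, and of Ifit2 (2.78 ± 0.80), Oasl1 (3.48 ± 1.08) and Oas2 (2.25 ± 0.81) in CD11c- IMs, all at an adjusted p of 1.

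The members moved together between replicates of 1 group. In Il9r-/- CD11c+ IMs and in Il9r-/- CD11c- IMs, 39 of the 40 members were higher in replicate 2 than in replicate 1, with median differences of 1.01 and 1.18 in log2(CPM + 1), where 46.1% and 56.1% of all genes were higher in replicate 1. In WT AMs, 39 of the 40 were higher in replicate 1, where 47.4% of all genes were, with a median difference of 0.80. The replicates of WT CD11c+ IMs and WT CD11c- IMs lay closer, with medians of 0.17 and -0.03 for replicate 1 minus replicate 2. The median level of the members in log2(CPM + 1) was 4.63 and 5.71 in Il9r-/- and 6.09 and 5.86 in WT CD11c+ IMs, 4.94 and 6.31 in Il9r-/- and 5.76 and 5.82 in WT CD11c- IMs, and 3.32 and 3.82 in Il9r-/- and 4.80 and 4.00 in WT AMs. Marker sums also differed between replicates. In WT AMs, melanocyte and B16 markers summed to 305 and 117 CPM in replicate 1 and replicate 2, and interstitial macrophage markers to 1933 and 1766 CPM. Dendritic cell markers in WT AMs ran the other way, at 24.3 and 45.8 CPM, as did neutrophil markers, at 31.8 and 71.0 CPM. Dendritic cell markers summed to 804 and 1906 CPM in replicate 1 and replicate 2 of Il9r-/- CD11c+ IMs, and to 421 and 1309 CPM in WT CD11c+ IMs. B cell markers summed to 179 and 863 CPM in replicate 1 and replicate 2 of Il9r-/- CD11c- IMs, and to 198 and 1453 CPM in WT CD11c- IMs. In Il9r-/- CD11c+ IMs neutrophil markers were at 349.5 and 1437 CPM and alveolar macrophage markers at 16108 and 3832 CPM in replicate 1 and replicate 2. Their part in this spread was not tested.

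**Figure D5:**
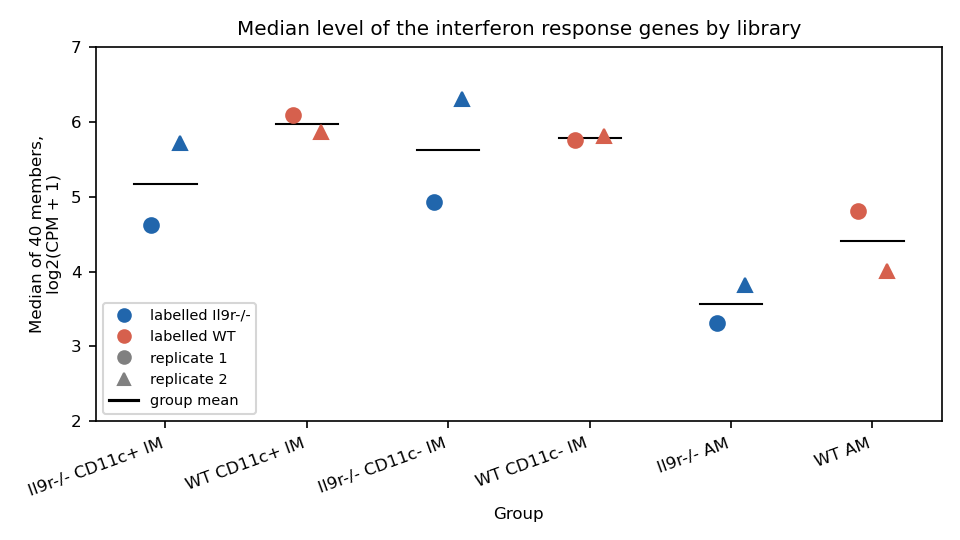
Median of the 40 members in log2(CPM + 1) in each library, by group, with blue for libraries labelled Il9r-/- and red for those labelled WT, circles for replicate 1, triangles for replicate 2 and bars for the group mean. The AM libraries lie between 3.32 and 4.80 and the IM libraries between 4.63 and 6.31, with WT AM replicate 1 above replicate 1 of Il9r-/- CD11c+ IMs.

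Other genes of the pathway, from a list of 78 of which 73 were in the table, moved between populations in the same comparisons. Of these 73, 40 were called higher and 2 lower for CD11c+ IMs over AMs, where 15.9% of all genes were called higher and 10.7% lower. In CD11c- IMs 38 were called higher and 8 lower, where 27.9% of all genes were called higher and 17.8% lower. The largest in CD11c+ IMs were Gbp10 (4.68 ± 1.01), Ifi205 (4.62 ± 0.56), Gbp4 (4.07 ± 0.57), Tlr9 (3.98 ± 0.91), Tgtp2 (3.90 ± 0.38) and Iigp1 (3.84 ± 0.65), and in CD11c- IMs Gbp10 (5.67 ± 1.01), Ifitm1 (4.80 ± 0.93), Ms4a4c (4.63 ± 0.81), Ly6a (4.48 ± 0.35), Iigp1 (4.38 ± 0.66) and Tgtp2 (4.22 ± 0.38). Gbp10 had 0.228 to 1.61 CPM in CD11c+ IMs and 0.831 to 1.83 CPM in CD11c- IMs, against 0 to 0.327 CPM in AMs. Its ranges in CD11c+ IMs and AMs overlapped. Tlr9 had 1.56 to 3.49 CPM in CD11c+ IMs, against 0 to 0.398 CPM in AMs. The fold changes of these genes therefore rest on few reads. Between the IM populations 2 of the 73 were called, both higher in CD11c+ IMs: Cxcl9, a chemokine that attracts T cells (1.80 ± 0.34, adjusted p = 0.013), and Gbp8 (1.29 ± 0.24). Over all genes, 4.98% were called higher and 7.71% lower in that comparison. Between genotype labels 0 of the 73 were called in any population, where at most 0.0205% of all genes were. Of the 6 receptor genes, 5 were called higher in CD11c+ IMs and 4 in CD11c- IMs. Chosen after their values were seen, Ifnar1, a chain of the type I receptor, had 173 to 198 CPM in CD11c+ IMs and 153 to 175 CPM in CD11c- IMs, against 52.5 to 83.7 CPM in AMs, and Mavs, the adaptor of RIG-I and MDA5, was lower, with 57.7 to 97.1 CPM and 33.5 to 66.2 CPM in CD11c+ and CD11c- IMs, against 199.7 to 226 CPM in AMs. Among the ligands, Ifnb1 had 0 to 1.45 CPM in CD11c+ IMs and 0 to 1.15 CPM in CD11c- IMs and was listed at 0 in all 4 AM libraries, and Ifng had 0.440 to 4.07 CPM in CD11c+ IMs and 0.762 to 4.47 CPM in CD11c- IMs, against 0 to 0.362 CPM in AMs.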

How the data were processed

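RNA was extracted from sorted cells with the RNeasy Micro kit and made into libraries with the SMART-Seq v4 kit. The authors aligned reads to mm10 with STAR 2.5 and deposited counts of uniquely mapped read pairs per refGene gene from featureCounts (Subread 1.5.1), after removal of genes of low CPM. The authors also deposited log2 FPKM values, for which the formula is not given in the sources used here, and which were used only to order genes per length. Counting was set to 1 strand while the kit does not mark strand, so antisense or overlapping genes cannot be told apart. Columns of the authors' comparisons hold fold changes, p-values and FDR and were not used.

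Counts of 14648 genes in 12 libraries were fitted with edgeR 4.0.16 (R 4.3.3), with TMM factors, 6 group means and 6 residual degrees of freedom, a robust quasi-likelihood fit and Benjamini-Hochberg adjustment at 0.05. SE is the absolute log2 fold change divided by the square root of the F statistic. The edgeR fit of CD11c+ IMs against AMs was also run on simulated data. Its outcome is not given here, so it does not show how accurate the calls are. Alternatives included DESeq2 1.42.0, RLE factors, a minimum mean of 5 CPM, blocks and leaving out each library. Library numbers were taken to pair the populations of 1 genotype label. Deviations from group means of the libraries numbered 1 correlated at 0.159 to 0.672 over 6 such population pairs. Where both label and population differed, the correlation was 0.0444 to 0.499, so these values cannot show that the number marks a pair within a label. Between genotype labels within a population the same correlation was 0.562 in CD11c+ IMs, 0.646 in CD11c- IMs and 0.0345 in AMs. Since pairing was taken only where every pair was above 0.1, the numbers were not taken to pair the genotypes. The members, roles and lists were chosen with earlier results of these data known. All 40 members could be named, with values in all libraries for the most abundant per role and for those leading each comparison by fold change or p. Sequences are from RefSeq promoter windows on GRCm38.p6.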

Additional observations from a re-analysis of the deposited data

How the results depend on the processing

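Of the 28 members called higher in CD11c+ IMs than in AMs, 17 were called when the 3 WT libraries numbered 1 were left out, and leaving out 1 library at a time gave 17 to 29. For CD11c- IMs against AMs the count stayed between 25 and 30. Between CD11c+ and CD11c- IMs the count was 0, was 4 with the replicate block by genotype and number, and was 0 to 2 with 1 library left out. For Il9r-/- against WT AMs it was 0, was 3 with DESeq2, and was 2 with edgeR on the AM libraries alone. For the mean of the 3 populations it was 0, was 1 with DESeq2, and was 1 with DESeq2 without WT AM replicate 1, chosen after seeing the data. The cause of these changes was not tested. With the library number as a replicate block, 29, 29 and 0 members were called in the 3 comparisons of populations and 0 in each genotype comparison. Each called member was counted once per alternative that held it. On this count, members called in CD11c+ IMs kept their call in 413 of 474 cases and those called in CD11c- IMs in 463 of 491, and 0 changed sign. The ISRE core was in 18 members, in 11 when followed by CT and in 8 on the gene's own strand only. The fit of only the groups compared was not run for the mean of the 3 populations, since it would hold the same libraries.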
